A study of Homo sapiens with 12 samples.

Results

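The genes described here are 42 genes of G2, mitosis and cytokinesis, read in 2 established human lines of the B cell tumour mantle cell lymphoma after induced knockdown of MAP3K14, the gene of the kinase NIK. Each gene was chosen by name and is read through 1 probe set, namely its single-symbol probe set of highest mean log2 signal. They are 42 of 19775 named genes on the arrays, and all 42 were among the 11548 genes bright enough to be tested. The study comprised 12 Affymetrix arrays. Z-138, labelled with a TRAF2 nonsense change, and Maver-1, labelled with a TRAF3 deletion, each carried a doxycycline-inducible hairpin under puromycin selection. The hairpins were NIKsh#1 and NIKsh#2, both directed at MAP3K14, and a non-targeting control called NTC. All 6 cultures were split and kept for 7 days in 100 or 0 ng/ml doxycycline, and each portion was read on 1 array, so each NIKsh group (line and dose) held 2 arrays, one per hairpin, and each NTC group held 1. Whether a culture was 1 clone is not given in the sources used here, and p-values here cover the spread among these cultures alone.

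Entry into mitosis is driven by CDK1 bound to cyclin B or cyclin A, which the CDC25 phosphatases switch on. Polo-like, Aurora and NEK kinases then build the spindle, the kinetochore proteins attach chromosomes to it, and the spindle checkpoint holds back the anaphase-promoting complex until every chromosome is attached. CDC20 turns that complex on, UBE2C is its ubiquitin-conjugating enzyme, and midzone proteins divide the cell. In proliferating cells the genes are transcribed together late in the cell cycle by the MuvB complex with B-MYB (MYBL2) and FOXM1. In resting or arrested cells the DREAM complex, which shares MuvB, represses the same promoters through a short element called the cell cycle genes homology region, usually next to binding sites of NF-Y. In mantle cell lymphoma the mRNA level of such genes is used as a measure of proliferation and marks the more aggressive cases.

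The promoters are shown because most of those found, though not all, held core letters of the elements named above. The start-site window of RefSeq (GRCh38.p14, 250 bases before to 50 after the annotated start, the first listed start of each gene) was found for 36 of the 42 genes. The table held no window for AURKA, BUB3, TTK, BIRC5, TPX2 or UBE2C. Both strands were searched for TTTGAA and TTTAAA, the core letters of the cell cycle genes homology region, and for CCAAT, the core of the NF-Y site. Windows of CCNB2 (a mitotic cyclin), CDC20, CENPF, PRC1 and DLGAP5, all genes whose signals are described below, are printed 5′ to 3′ in the direction of transcription. Capitals mark the matches, with TTCAAA and ATTGG being TTTGAA and CCAAT read on the other strand.
CCNB2, chr15:59104896-59105195, plus strand: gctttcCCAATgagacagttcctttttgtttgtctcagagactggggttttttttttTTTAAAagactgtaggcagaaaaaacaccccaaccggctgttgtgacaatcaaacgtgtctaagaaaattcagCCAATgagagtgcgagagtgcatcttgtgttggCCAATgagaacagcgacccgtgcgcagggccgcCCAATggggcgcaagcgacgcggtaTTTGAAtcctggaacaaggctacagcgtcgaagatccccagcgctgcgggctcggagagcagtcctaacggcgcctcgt
CDC20, chr1:43358731-43359030, plus strand: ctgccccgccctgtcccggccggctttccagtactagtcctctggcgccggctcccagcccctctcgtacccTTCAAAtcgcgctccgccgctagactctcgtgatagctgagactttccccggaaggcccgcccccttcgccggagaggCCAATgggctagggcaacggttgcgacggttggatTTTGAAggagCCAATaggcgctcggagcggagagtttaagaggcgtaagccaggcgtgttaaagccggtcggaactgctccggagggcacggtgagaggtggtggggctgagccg
CENPF, chr1:214602945-214603244, plus strand: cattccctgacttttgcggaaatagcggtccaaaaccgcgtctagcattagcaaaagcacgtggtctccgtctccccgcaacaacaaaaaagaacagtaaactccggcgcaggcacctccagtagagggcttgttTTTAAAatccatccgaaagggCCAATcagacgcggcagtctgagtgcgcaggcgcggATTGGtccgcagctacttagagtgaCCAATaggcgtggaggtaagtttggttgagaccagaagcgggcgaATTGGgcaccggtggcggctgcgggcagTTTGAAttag
PRC1, chr15:90994486-90994785, minus strand: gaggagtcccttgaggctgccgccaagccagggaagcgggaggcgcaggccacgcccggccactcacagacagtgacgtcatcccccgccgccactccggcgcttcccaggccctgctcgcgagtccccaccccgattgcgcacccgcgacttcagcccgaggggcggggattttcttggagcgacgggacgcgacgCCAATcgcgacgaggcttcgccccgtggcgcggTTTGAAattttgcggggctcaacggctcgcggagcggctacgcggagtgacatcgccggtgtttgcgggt
DLGAP5, chr14:55191536-55191835, minus strand: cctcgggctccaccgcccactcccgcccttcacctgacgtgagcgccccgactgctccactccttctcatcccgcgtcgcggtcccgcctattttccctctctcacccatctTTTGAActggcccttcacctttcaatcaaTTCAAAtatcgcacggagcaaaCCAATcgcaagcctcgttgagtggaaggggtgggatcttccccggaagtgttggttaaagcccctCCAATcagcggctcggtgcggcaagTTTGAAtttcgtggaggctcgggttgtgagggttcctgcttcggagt

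Of the 36 windows, 30 (83.3%) held TTTGAA or TTTAAA, against 1514 of the 9472 windows of tested genes and 24.3% of those of 27305 genes in the table. TTTGAA stood in 25 windows (69.4%, against 9.97% of tested genes) and TTTAAA in 12 (33.3%, against 7.57%). CCAAT stood in 25 windows (69.4%, against 37.2%), in 16 of them more than once. Both a hexamer and CCAAT were present in 22 windows (61.1%, against 6.56%). The hexamer lay within 50 bases of the start in 24 windows (66.7%, against 4.51% of tested genes). Its first base, taking the match nearest to the start, had a median position of -28.5, and that of CCAAT a median of -55.0. In 1 window matches of 2 motifs shared bases.

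Genes of S phase give a second point of reference. A hexamer stood in 4 of 35 S phase windows (11.4%), whereas CCAAT stood in 21 (60.0%). A further list of other mitotic genes had the hexamer in 39 of 55 windows (70.9%), within 50 bases of the start in 31 (56.4%). Among the 36 genes, the windows of CCNA2, CDC25B, CDC25C, AURKB, NEK2 and TACC3 held no hexamer at the first listed start. Counting any listed start, 32 of 36 windows held one (88.9%, against 21.5% of tested genes). These matches describe letters and not bound sites.

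**Figure D1:**
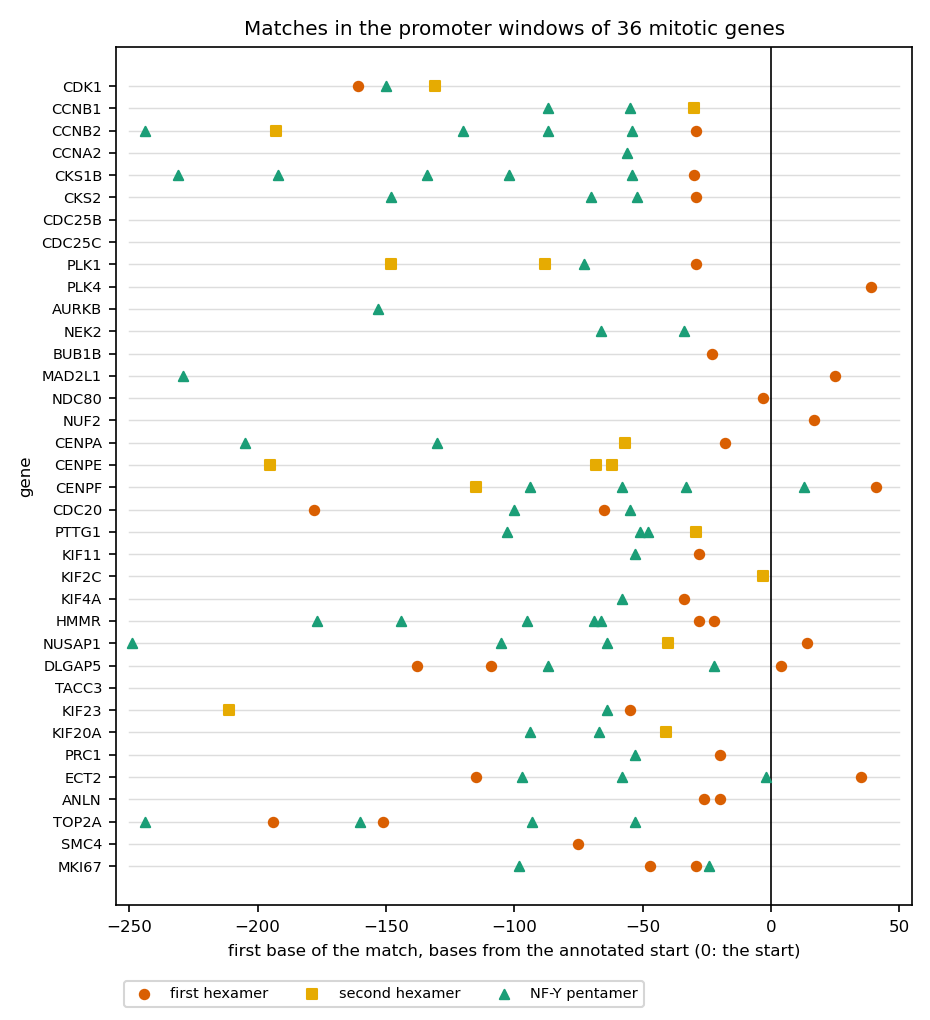
Position of each motif match in the start-site windows of 36 mitotic genes, in bases from the annotated start, with transcription running to the right. Circles are TTTGAA (first hexamer), squares TTTAAA (second hexamer) and triangles CCAAT (the NF-Y pentamer), and 24 genes have a hexamer within 50 bases of the start.

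The arrays carried B cell transcripts. The 5 measured B cell markers summed to signals of 4178.0 to 6882.2 in Z-138 and 5450.0 to 6580.1 in Maver-1. MS4A1 was the brightest of them, at 2767.1 to 4005.8 over both lines. CD22 was the dimmest, at 29.4 to 61.8 in Z-138 and 47.8 to 97.6 in Maver-1. Both mantle cell lymphoma genes, SOX11 and CCND1, gave signal on every array (lowest 455.5 and 496.7). Of the T and NK cell markers 6 of 8, and of the monocyte markers 5 of 7, were too dim to be tested. The T and NK list summed to 92.2 to 219.3 in Z-138, with CD3G at 56.6 to 177.5, and to 21.4 to 42.3 in Maver-1, and the monocyte list to 21.5 to 43.4 and 27.0 to 60.7. Of 9 fibroblast, epithelial and endothelial markers, 5 were bright enough, with sums of 208.3 to 662.6 in Z-138 and 902.7 to 1237.2 in Maver-1, and DCN, CDH5 and VWF stayed at or under 8.2 on every array. The brightest of the 9 was PECAM1, at 44.8 to 397.0 in Z-138 and 549.7 to 929.1 in Maver-1. EPCAM had 1.3 to 3.8 in Z-138 and 173.0 to 314.4 in Maver-1, and COL1A1 had 76.1 to 244.2 and 20.6 to 46.9. KRT18 had 1.5 to 11.1 in Z-138 and 54.9 to 88.2 in Maver-1. MAP3K14 had a mean log2 change with doxycycline of -0.42 ± 0.25 (SD, n = 4) in NIKsh cultures and 0.50 ± 0.37 (SD, n = 2) in NTC cultures, which differ by -0.92 (two-sided exact permutation test, p = 0.0667, as low as 4 against 2 cultures can reach). Its NIKsh changes were -0.68 and -0.08 in Z-138 (NIKsh#1, then #2) and -0.44 and -0.49 in Maver-1, and the NTC changes were 0.24 in Z-138 and 0.76 in Maver-1. In Z-138 NIKsh#2 the MAP3K14 signal was thus nearly the same in both conditions (49.2 with doxycycline, against 52.0 without), and the higher NTC values with doxycycline make up part of the difference. The ratio of 3′ to 5′ signal for ACTB, which follows RNA integrity and amplification, was higher with doxycycline in the 3 Z-138 cultures. It was 4.62, 5.09 and 6.34 with doxycycline in Z-138 NIKsh#1, NIKsh#2 and NTC, against 2.86, 2.92 and 2.33 without. In Maver-1 it was 4.32, 3.8 and 4.43 with doxycycline in the same order, against 4.68, 3.66 and 6.88 without. The same ratio for GAPDH was 1.36, 1.83 and 2.0 with doxycycline in Z-138 NIKsh#1, NIKsh#2 and NTC, against 1.3, 1.15 and 1.17 without. In Maver-1 the GAPDH ratio was 1.58, 1.42 and 1.68 with doxycycline in the same order, against 1.63, 1.54 and 2.39 without. The part of these ratios and of the marker lists in the results below was not tested.

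The first comparison asked whether the mitotic genes respond to knockdown. Across the 4 NIKsh cultures 0 of the 42 genes passed with doxycycline (limma, adjusted p under 0.05 over all 11548 genes), and 0 had an unadjusted p under 0.05. In the same comparison 5 of all genes passed, or 0.0433%, and 1037 had an unadjusted p under 0.05. The log2 change was negative for 32 of the 42 genes and positive for 10, with a median of -0.06, against a median of 0.01 over all genes tested. Of all genes tested, 51.7% had a positive change. In the 2 NTC cultures 0 of 42 passed (0.0% of all genes), 1 of 42 and 387 of all genes had an unadjusted p under 0.05, and 21 of the 42 were negative. There, 56.0% of all genes tested had a positive change. The difference between the NIKsh and NTC responses also gave 0 of 42 (0.0% of all genes), with 0 of the 42 and 627 of all genes at an unadjusted p under 0.05. With so few cultures a gene can miss the threshold without its level being the same, and in RNA from whole cultures fewer mitotic cells and less RNA per cell cannot be told apart.

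The size of the changes was small beside that over all genes tested, which include dimmer genes. The lowest signal of the 42 genes on any array was 59.4, whereas genes were tested from a mean signal of 12.55. No comparison with genes of like brightness was made. The SD over the 42 genes of the log2 change was 0.234, 0.24 and 0.305 in Z-138 NIKsh#1, NIKsh#2 and NTC, against 0.46, 0.513 and 0.541 over all genes tested. In Maver-1 it was 0.15, 0.199 and 0.155 in the same order, against 0.301, 0.351 and 0.264. Over the 12 arrays the highest signal of a mitotic gene was a median of 1.46 times its lowest, against 2.18 times for all genes tested. For 22 of the 42 genes all 12 arrays lay within 1.5-fold, and for 35 within 2-fold. A change of at least 1.5-fold with doxycycline was seen in 2, 0 and 4 of the 42 genes in Z-138 NIKsh#1, NIKsh#2 and NTC, where 14.5%, 19.9% and 24.6% of all genes reached it. In Maver-1 NIKsh#1, NIKsh#2 and NTC the counts were 0, 3 and 0, and the shares of all genes were 5.46%, 9.51% and 4.49%.

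**Figure D2:**
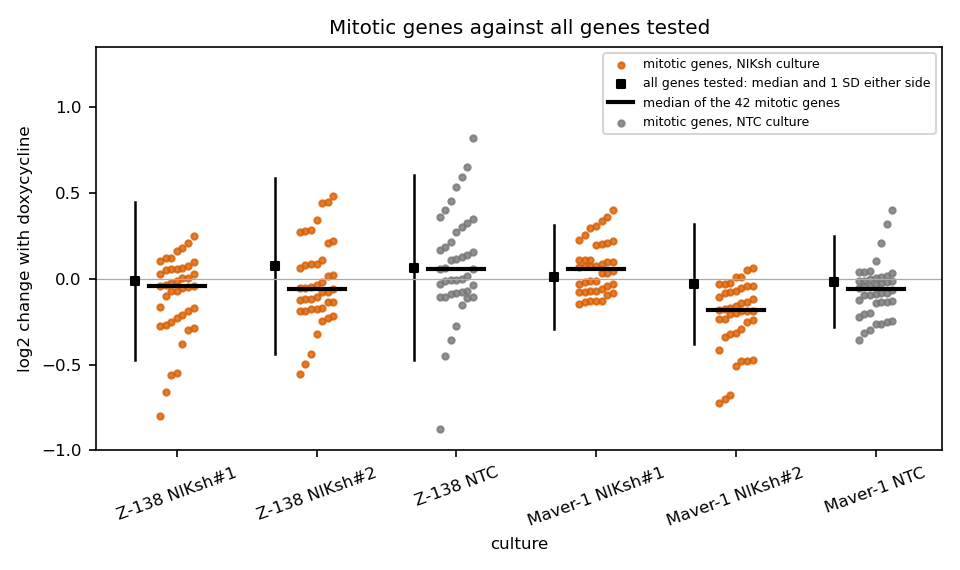
Log2 change of signal with doxycycline for each of the 42 mitotic genes (points) in each culture, with their median (bar) and the median and 1 SD either side of all genes tested (square and line). The points of Maver-1 NIKsh#2 lie mostly below 0 (38 of 42), and those of Z-138 NTC have the widest spread of the 6 cultures (SD 0.305).

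Of the 8 genes around CDK1, 6 had a negative mean change in the NIKsh cultures, with a median of -0.07, and 0 passed. CDK1, the kinase that starts mitosis, was the only one of the 42 genes with a positive change in all 4 NIKsh cultures, a pattern that 9.95% of all genes had. Its signal was 1550.0, 1472.5, 1737.0 and 1528.8 with doxycycline in Z-138 (NIKsh#1, NIKsh#2) and Maver-1 (NIKsh#1, NIKsh#2), against 1489.0, 1389.2, 1502.3 and 1517.2 without. In NTC it was 1493.8 and 1616.4 with doxycycline in Z-138 and Maver-1, against 1341.1 and 1635.2 without. The 2 conditions overlap, and the mean NIKsh change of 0.09 ± 0.08 (SD, n = 4) did not pass. CCNB1, the main mitotic cyclin, had 1497.2, 1576.5, 1762.4 and 1579.2 with doxycycline in the NIKsh cultures in that order, against 1784.2, 1731.3, 1721.9 and 1734.2 without. It was lower with doxycycline in 3 of 4 NIKsh cultures, by a mean log2 change of -0.12 ± 0.12 (SD, n = 4). CKS1B, a small subunit of the CDK1 complex, and CCNB2 were negative in all 4, with means of -0.09 ± 0.06 and -0.08 ± 0.08 (SD, n = 4 each).

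All 6 mitotic kinases had a negative mean in the NIKsh cultures, with a median of -0.20, and 0 of 6 passed. In NTC, 5 of 6 were negative in Z-138 (median -0.03) and 4 of 6 in Maver-1 (median -0.13). Over all genes tested 44.1% and 53.8% were negative there. The NTC changes in Z-138 and Maver-1 were -0.88 and 0.40 for AURKB, and -0.04 and -0.27 for NEK2. AURKB, the kinase of the chromosomal passenger complex, had 737.6 and 688.7 with doxycycline in Z-138 NIKsh#1 and NIKsh#2, against 1087.8 and 1012.0 without. In Maver-1 NIKsh#1 and NIKsh#2 it had 422.7 and 444.4 with doxycycline, against 468.4 and 499.7 without. All 4 changes were negative, with a mean of -0.36 ± 0.23 (SD, n = 4; limma adjusted p = 0.625). NEK2, which separates the centrosomes, had 551.1, 621.8 and 479.9 with doxycycline in both Z-138 NIKsh cultures (#1, then #2) and in Maver-1 NIKsh#2, against 806.4, 877.2 and 684.6 without. Maver-1 NIKsh#1 had the opposite sign, at 875.8 with doxycycline against 663.7 without, and the mean of the 4 changes was -0.29 ± 0.46 (SD, n = 4; limma adjusted p = 0.652). PLK1, which acts from mitotic entry to cytokinesis, averaged -0.19 ± 0.20 and AURKA, the spindle pole Aurora kinase, -0.04 ± 0.07 (SD, n = 4 each).

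Among kinetochore genes, 7 of 8 had a negative mean in the NIKsh cultures and 0 passed. CENPA, the centromeric histone H3 variant, had the smallest p of the 42 genes (-0.37 ± 0.17, SE; limma adjusted p = 0.586). Its signal was 59.4, 94.6, 146.5 and 100.3 with doxycycline in Z-138 (NIKsh#1, NIKsh#2) and Maver-1 (NIKsh#1, NIKsh#2), against 105.4, 108.0, 147.8 and 140.9 without. Each NIKsh culture was lower with doxycycline, by a log2 change of -0.80 in Z-138 NIKsh#1 but only -0.01 in Maver-1 NIKsh#1. In NTC cultures CENPA had 106.5 and 147.5 with doxycycline in Z-138 and Maver-1, against 102.2 and 162.0 without.

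UBE2C, the ubiquitin-conjugating enzyme of the anaphase-promoting complex, had log2 changes of -0.23, -0.24, -0.02 and -0.24 in Z-138 (NIKsh#1, NIKsh#2) and Maver-1 (NIKsh#1, NIKsh#2) (mean -0.18 ± 0.10, SE; limma adjusted p = 0.636). TPX2, the spindle assembly factor that activates AURKA, had -0.19, -0.18, -0.03 and -0.25 in the same cultures. In all, 6 of the 42 genes (CCNB2, AURKB, CENPA, TPX2, UBE2C and CKS1B) were negative in all 4 NIKsh cultures, where 8.29% of all genes were. The midzone genes split evenly, with 3 positive and 3 negative means, and the 3 genes TOP2A, SMC4 and MKI67 all had means above 0. MKI67, the gene of the proliferation marker Ki-67, had 597.5, 727.2, 585.6 and 559.0 with doxycycline in the 4 NIKsh cultures in that order, against 517.6, 532.2, 643.8 and 571.8 without. It was higher with doxycycline in both Z-138 cultures and lower in both Maver-1 cultures, and its other 3 probe sets did not all have that sign.

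**Figure D3:**
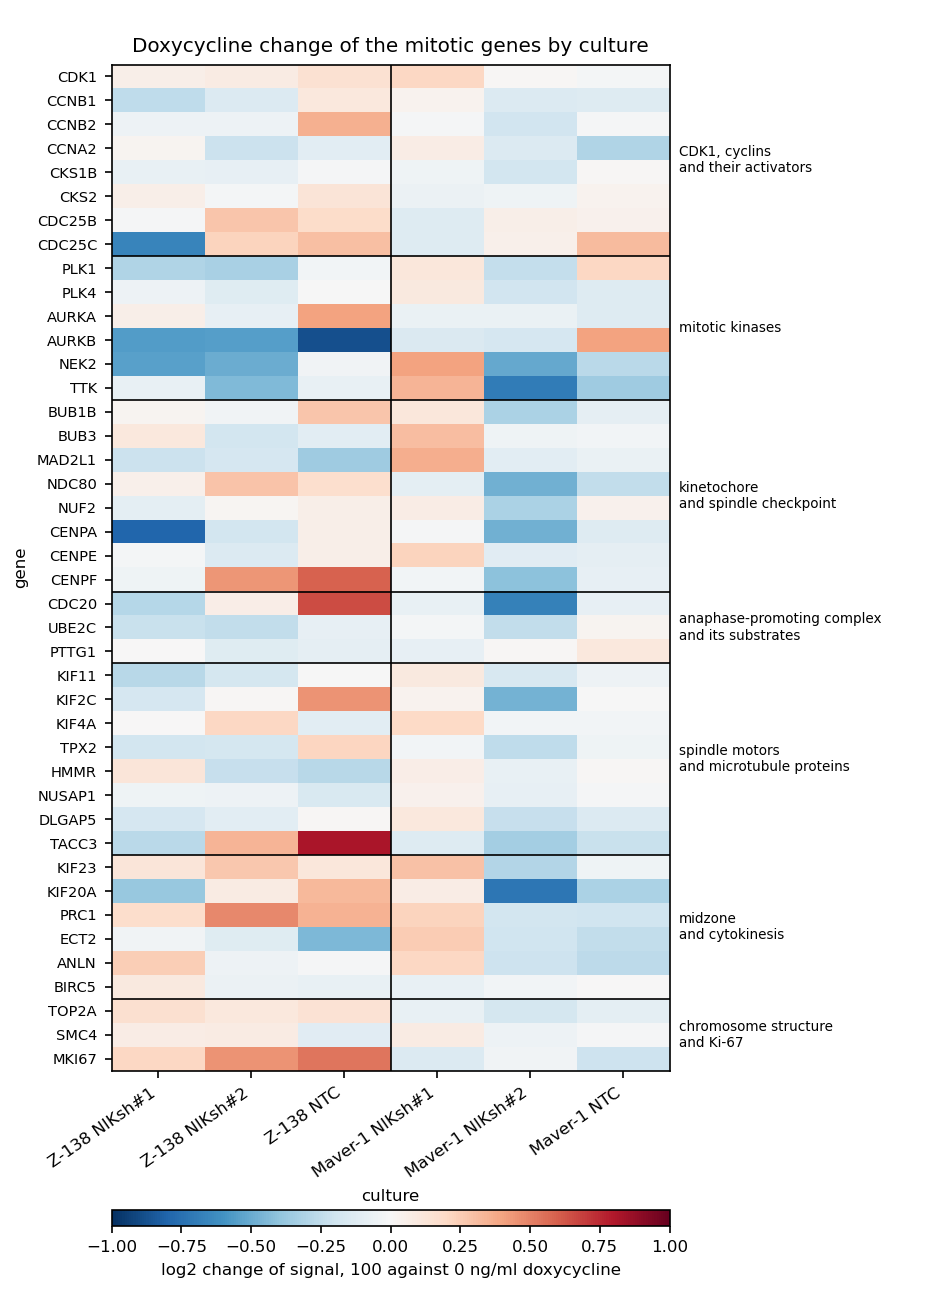
Log2 change of signal with doxycycline (100 against 0 ng/ml) for each mitotic gene (rows, by role) in each culture (columns), blue for lower and red for higher. AURKB is the darkest blue cell of Z-138 NTC (-0.88) and TACC3 its darkest red one (0.82), while most cells of Maver-1 NIKsh#2 are blue.

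Within Z-138, 0 of the 42 genes passed in the 2 NIKsh cultures, where 2.14% of all genes did, and 4 of the 42 (AURKB, KIF11, NEK2 and MKI67) had an unadjusted p under 0.05. AURKB was nearest to the threshold (-0.56 ± 0.13, SE; limma adjusted p = 0.0703). It passed without the replicate block (-0.69, adjusted p = 0.0433) and with culture as a random block (-0.67, adjusted p = 0.0322). The Z-138 NTC culture had a change of the same sign, at 683.2 with doxycycline against 1256.3 without, so that AURKB was the only one of the 42 genes with a log2 change of -0.5 or lower in all 3 Z-138 cultures, where 0.831% of all genes had one. With doxycycline the 3 Z-138 values (683.2 to 737.6) lay below all 3 without (1012.0 to 1256.3). In Maver-1 NTC the signal was 442.5 with doxycycline against 334.6 without. The ACTB ratio given above was higher with doxycycline in the same 3 cultures, and its part in this result was not tested. A second, dimmer probe set of AURKB had log2 changes of -0.04, -1.13 and -1.43 in Z-138 NIKsh#1, NIKsh#2 and NTC. In Maver-1 it had -0.17, -0.25 and -2.26 in the same order, so in Maver-1 NTC its sign was opposite to that of the chosen probe set (0.40). KIF11, the motor that pushes the spindle poles apart, had a log2 change of -0.22 ± 0.08 (SE; limma adjusted p = 0.222).

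Several genes were higher with doxycycline in Z-138 NTC alone or in Z-138 NTC and Z-138 NIKsh#2. TACC3, a spindle microtubule protein, had 346.7, 486.1 and 616.0 with doxycycline in Z-138 NIKsh#1, NIKsh#2 and NTC, against 418.3, 382.5 and 348.0 without. CDC20, the activator of the anaphase-promoting complex, had 370.7, 476.8 and 843.6 with doxycycline, against 453.4, 455.5 and 536.7 without. CENPF, a kinetochore and nuclear matrix protein, had 1402.2, 1829.0 and 2065.1 with doxycycline, against 1443.2, 1343.8 and 1368.1 without. The 3 genes share the order of the cultures, with NTC highest and NIKsh#1 lowest with doxycycline. FOXM1, the transcription factor of many mitotic genes and not one of the 42, had 674.5, 977.4 and 1057.4 with doxycycline, against 723.0, 778.0 and 503.1 without. MYBL2 had log2 changes of -0.62, -0.21 and 0.50 in Z-138 NIKsh#1, NIKsh#2 and NTC. Across the 42 genes the changes of Z-138 NTC and Z-138 NIKsh#2 correlated at 0.67, against 0.28 over all genes tested, while Z-138 NTC and Z-138 NIKsh#1 correlated at 0.07. These correlations run across genes, which are not independent, and each point of a culture shares the same pair of arrays. The NTC pattern rests on 1 pair of arrays and has no replicate check. The GAPDH ratio given above had the same order with doxycycline in Z-138, with NTC highest and NIKsh#1 lowest. Its part in this pattern was not tested. The median of the 42 genes in Z-138 NTC was 0.06, and -0.05 when all probe sets of a gene were averaged.

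Within Maver-1, 0 of the 42 genes passed in the 2 NIKsh cultures (0.0% of all genes), with 0 of the 42 and 458 of all genes at an unadjusted p under 0.05. The 2 hairpin cultures differed in direction. In NIKsh#2 the log2 change was negative for 38 of 42 genes, with a median of -0.18 against -0.03 over all genes tested. In NIKsh#1 it was negative for 18 of 42, with a median of 0.06 against 0.01, and in NTC for 31 of 42, with a median of -0.06 against -0.02. The lowest value in NIKsh#2 was that of KIF20A, a midzone kinesin, with 250.6 with doxycycline against 415.4 without. CDC20 had 393.9 with doxycycline against 630.4 without there, and TTK, a spindle checkpoint kinase, 114.8 against 188.2. In NIKsh#1 the same genes had 429.4, 550.4 and 233.7 with doxycycline, against 408.2, 578.7 and 184.5 without. All 8 kinetochore genes, all 6 mitotic kinases, all 8 spindle motor and microtubule genes and all 6 midzone genes were negative in NIKsh#2. NDC80, of the complex that grips microtubules at the kinetochore, had a log2 change of -0.48 there and -0.09 in NIKsh#1. The list of other mitotic genes had a median of -0.16 in that culture, with 49 of 65 negative, and S phase genes a median of -0.25, with 36 of 39 negative. With 1 pair of arrays per hairpin these values have no replicate check.

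**Figure D4:**
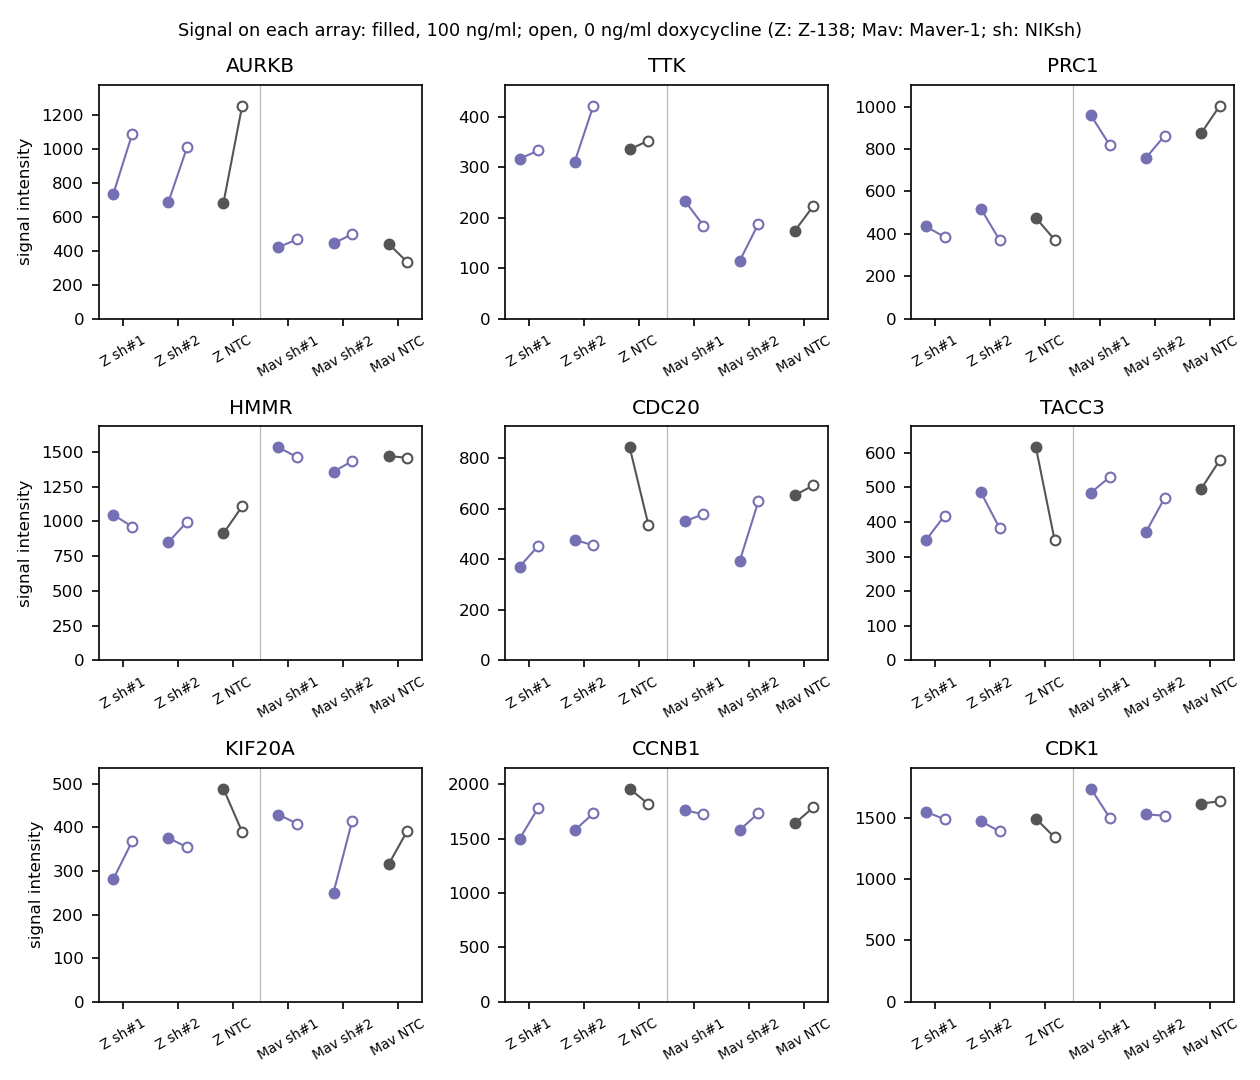
Signal intensity of 9 mitotic genes on each of the 12 arrays, filled for 100 and open for 0 ng/ml doxycycline, with a line joining the 2 arrays of a culture. AURKB is lower with doxycycline in all 3 Z-138 cultures, PRC1 and HMMR are lower on every Z-138 array than on every Maver-1 array, and CDK1 and CCNB1 overlap between lines and conditions.

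The difference between Z-138 and Maver-1 in the NIKsh response gave 0 of 42 genes, where 0.121% of all genes passed. TOP2A, the topoisomerase that untangles chromosomes, and MAD2L1, a spindle checkpoint protein, had an unadjusted p under 0.05. TOP2A had 2477.0 and 2383.3 with doxycycline in Z-138 NIKsh#1 and NIKsh#2, against 2212.4 and 2209.7 without. Its difference between the lines was 0.26 ± 0.10 (SE; limma adjusted p = 0.526). MAD2L1 had 2727.1 and 2564.4 with doxycycline in those Z-138 cultures, against 3163.1 and 2884.9 without, and a difference of -0.32 ± 0.14 (SE; limma adjusted p = 0.575). In Maver-1 the MAD2L1 change was 0.36 in NIKsh#1 and -0.11 in NIKsh#2, so the 2 hairpins stood on either side of 0. Without Maver-1 NIKsh#2 the MAD2L1 difference passed (-0.55, adjusted p = 0.0103), but 1 Maver-1 NIKsh culture then remained and was assumed to vary like the others.

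Without doxycycline the 2 lines differed in 18 of the 42 genes, 8 higher and 10 lower in Z-138 (limma, adjusted p under 0.05). Over all genes 60.2% passed, 25.5% higher and 34.8% lower. The median size of the log2 difference was 0.17 for the 42 genes and 0.43 for all genes tested, which include dimmer genes. With array medians set equal the split was 13 higher and 9 lower, since that centring moved the median of all genes by 0.13 on the log2 scale, and with all probe sets of a gene averaged it was 11 higher and 8 lower. Of the 18, 14 passed under every alternative tried on the untreated arrays.

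The kinases AURKB and TTK stood highest in Z-138. AURKB had 1087.8, 1012.0 and 1256.3 in untreated Z-138 NIKsh#1, NIKsh#2 and NTC, against 468.4, 499.7 and 334.6 in Maver-1. No array overlapped, the means were 1119 ± 125 and 434 ± 87.7 (SD, n = 3 each), a ratio of 2.58, and the log2 difference was 1.37 ± 0.14 (SE; limma adjusted p = 1.91e-06). TTK had 333.0, 421.4 and 352.6 in Z-138, against 184.5, 188.2 and 223.6 in Maver-1, a log2 difference of 0.88 ± 0.13 (SE; limma adjusted p = 6.04e-05). It is a kinase of the spindle checkpoint, and its lowest Z-138 array stood above its highest Maver-1 array. PLK1 was also higher in Z-138 (0.37, adjusted p = 0.0225), a call that was lost when Z-138 NIKsh#1, Z-138 NIKsh#2 or Maver-1 NTC was left out (adjusted p of 0.0746, 0.0538 and 0.0790). NEK2, PLK4 and AURKA did not pass.

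Midzone and spindle genes stood on both sides. PRC1, which bundles the antiparallel microtubules of the anaphase midzone, had 385.2, 371.0 and 372.7 in untreated Z-138 NIKsh#1, NIKsh#2 and NTC, against 819.1, 862.7 and 1004 in Maver-1. The groups lay far apart, with means of 376.3 ± 7.75 and 895.1 ± 96.4 (SD, n = 3 each) and a log2 difference of -1.24 ± 0.10 (SE; limma adjusted p = 2.18e-07). KIF23, the kinesin of the centralspindlin complex at the same midzone, was also lower in Z-138 (-0.71 ± 0.13, SE; adjusted p = 3.77e-04). HMMR, a spindle assembly protein, had 962.4, 997.4 and 1108 in Z-138, against 1462, 1434 and 1458 in Maver-1 (-0.51 ± 0.08, SE; limma adjusted p = 8.06e-05). BIRC5, survivin, which sits with AURKB in the chromosomal passenger complex, was higher in Z-138, at 2919, 3049 and 3189 against 2464, 2508 and 2395 (0.31 ± 0.06, SE; limma adjusted p = 4.23e-04). DLGAP5, which stabilises kinetochore microtubules, was higher as well, averaging 1008 ± 14.1 in Z-138 and 701.8 ± 58.4 in Maver-1 (SD, n = 3 each; 0.52 ± 0.09, SE, limma adjusted p = 1.71e-04). TACC3 was lower in Z-138 (-0.45, adjusted p = 0.00351).

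Of the 8 genes around CDK1, CDC25B and CCNB2 were lower in Z-138 and the other 6 did not pass. The CCNB2 call was lost when all probe sets of a gene were averaged (0.03, adjusted p = 0.866). CDC25B, a phosphatase that activates CDK1, had 961.9, 915.7 and 831.9 in Z-138, against 1511, 1375 and 1417 in Maver-1 (-0.67 ± 0.08, SE; limma adjusted p = 1.14e-05). CDK1 averaged 1406 ± 75.4 in Z-138 and 1552 ± 72.8 in Maver-1, and CCNB1 1778 ± 43.4 and 1748 ± 35.7 (SD, n = 3 each). Without doxycycline, kinetochore genes divided within one complex. NUF2 was higher in Z-138 (0.35, adjusted p = 0.00209), while its partner NDC80 was lower (-0.46, adjusted p = 4.20e-04). NUF2 averaged 1005 ± 46.6 in Z-138 and 788.8 ± 19.9 in Maver-1, and NDC80 559.4 ± 8.22 and 771.1 ± 31.4 (SD, n = 3 each). BUB3 and CENPF passed as higher, though CENPF did not pass without Z-138 NIKsh#1 or Maver-1 NIKsh#1 (adjusted p of 0.0539 and 0.0589). CENPA passed as lower, and CDC20 was lower (-0.39, adjusted p = 0.00596). MKI67 did not pass, and TOP2A was lower by a small amount (-0.16, adjusted p = 0.0249). That TOP2A call was lost with averaged probe sets (adjusted p = 0.139), with arrays centred on their medians (0.656), with no variance trend (0.116) and when any culture other than Z-138 NIKsh#2 was left out (0.0504 to 0.0843).

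With doxycycline 11 of the 42 genes differed between the lines, 6 higher and 5 lower in Z-138, against 36.3% of all genes (17.3% higher and 19.1% lower). The same sign and a call in both conditions were found for 10 genes, which are 90.9% of the calls with doxycycline and 55.6% of those without. BUB3, CCNB2, CDC20, CENPA, NDC80, PLK1, TACC3 and TOP2A passed without doxycycline only. Of these, CDC20, TACC3 and TOP2A had the opposite order of means with doxycycline. CDC20 then averaged 563.7 in Z-138 and 532.8 in Maver-1, TACC3 482.9 and 450.2, and TOP2A 2418 and 2268. NDC80 was nearly level, at 629.9 and 640.1, and the means of the rest of these genes kept their order. PRC1 had 435.7, 519.2 and 475.8 with doxycycline in Z-138 NIKsh#1, NIKsh#2 and NTC, against 958.5, 758.6 and 873.1 in Maver-1 (-0.85 ± 0.14, SE; limma adjusted p = 0.00167). AURKB had 737.6, 688.7 and 683.2 in Z-138, against 422.7, 444.4 and 442.5 in Maver-1. The AURKB arrays still did not overlap, and the log2 difference was 0.68 with doxycycline and 1.37 without. CENPF differed more with doxycycline than without (0.75 and 0.24), with 1402, 1829 and 2065 in Z-138 against 1093, 866.2 and 1170 in Maver-1. Whether either gene's line difference changed with doxycycline was not tested over all 6 cultures. MAD2L1 passed as lower in Z-138 with doxycycline (-0.35, adjusted p = 0.0205) and had a log2 difference of -0.04 without. The call with doxycycline was lost with averaged probe sets (-0.08, adjusted p = 0.65), with arrays centred on their medians (-0.27, adjusted p = 0.12), with no variance trend (adjusted p = 0.105) and without Maver-1 NIKsh#1 (adjusted p = 0.0928) or Maver-1 NTC (adjusted p = 0.0648). The count fell to 7 of 42 without Maver-1 NTC, when TTK, NUF2, KIF23 and MAD2L1 no longer passed. KIF23 and NUF2 with doxycycline also failed when any other culture except Z-138 NIKsh#1 was left out, with no filter and with array weights. Over the alternatives that lost the call, the limma adjusted p was 0.0535 to 0.196 for KIF23 and 0.0672 to 0.161 for NUF2. On all 6 arrays of each line together, 6 genes had every Z-138 array above every Maver-1 array (AURKB, TTK, NUF2, CENPF, BIRC5 and DLGAP5) and 5 had every one below (CDC25B, KIF23, HMMR, NUSAP1 and PRC1). Those 11 of 42 stand beside 36.9% of all genes, 16.7% above and 20.1% below.

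**Figure D5:**
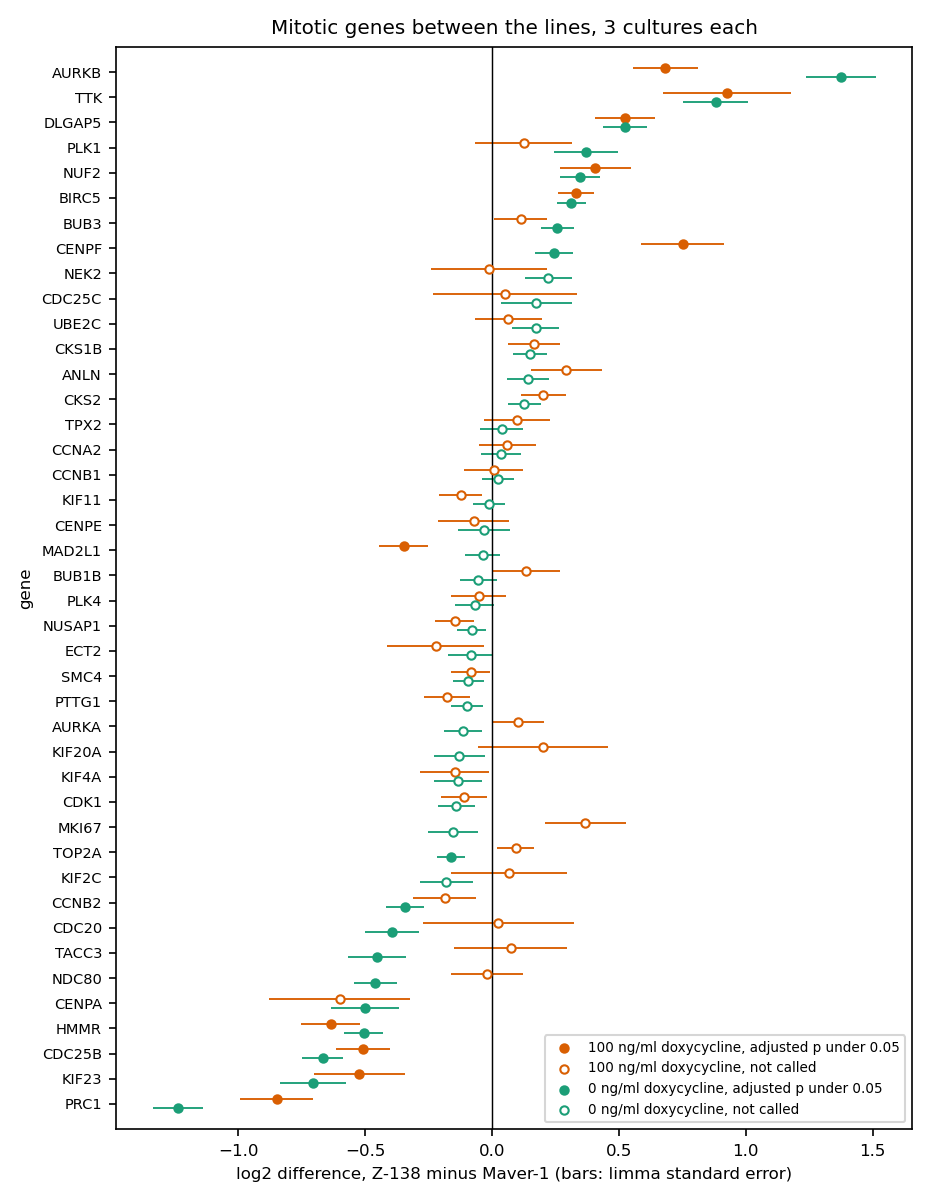
Log2 difference in signal, Z-138 minus Maver-1, for each of the 42 mitotic genes with 100 (upper, orange) and 0 ng/ml doxycycline (lower, green), bars showing the limma standard error and filled points an adjusted p under 0.05. AURKB (1.37 without doxycycline) and PRC1 (-1.24) lie at the ends, and 10 genes are filled in both conditions.

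Other mitotic genes, from a list that holds none of the 42, gave 23 higher and 19 lower of 65 in untreated Z-138, beside 60.2% of all genes (25.5% higher and 34.8% lower), with a median log2 difference of 0.01. SPC25, a subunit of the NDC80 complex, had 642.0, 638.5 and 647.2 in Z-138 NIKsh#1, NIKsh#2 and NTC, against 310.7, 307.0 and 300.6 in Maver-1 (1.06, adjusted p = 5.16e-07). BORA, an activator of AURKA, was 1.22 higher on the log2 scale, and CEP55, of the cytokinetic bridge, was lower (-0.56, adjusted p = 6.38e-06). Of 39 S phase genes, 10 were higher and 10 lower beside that same background, the replication factor MCM10 being higher by 1.22 on the log2 scale. Under doxycycline 0 of 65 other mitotic genes, 0 of 21 G2/M regulators and 0 of 39 S phase genes passed in the 4 NIKsh cultures.

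Regulators of the mitotic promoters gave 6 higher and 4 lower of 21 in untreated Z-138, beside 25.5% of all genes higher and 34.8% lower. CDKN1A, the gene of p21, which inhibits CDK complexes and so favours DREAM, had 1304, 1248 and 903.6 in Z-138 NIKsh#1, NIKsh#2 and NTC, against 263.3, 239.3 and 280.8 in Maver-1. The lowest Z-138 array was above every Maver-1 array, and the log2 difference was 2.11 ± 0.13 (SE; limma adjusted p = 2.01e-08). FOXM1 did not pass (-0.22 ± 0.15, SE; adjusted p = 0.222). MYBL2 was lower in Z-138, averaging 490.1 ± 48.7 there and 632.5 ± 58.6 in Maver-1 (SD, n = 3 each; limma adjusted p = 0.00986).

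Between NIKsh and NTC cultures without doxycycline 0 of 42 genes passed (0.0% of all genes), with 1 of 42 and 552 of all genes at an unadjusted p under 0.05. The one gene was CDC20, with 453.4 and 455.5 in Z-138 NIKsh#1 and NIKsh#2 against 536.7 in Z-138 NTC. In Maver-1 it had 578.7 and 630.4 in the NIKsh cultures against 692.6 in NTC, and the log2 difference was -0.22 ± 0.10 (SE; limma adjusted p = 0.989). CDC20 was thus lower in every NIKsh culture than in the NTC culture of its line in the portions kept without doxycycline.

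The choice of probe set bears on some of these values. The 42 genes had 83 probe sets, and 20 genes had only 1. Of the other 38 probe sets bright enough to be tested, 24 had the same sign as the chosen one in the untreated line comparison, and 11 of 14 did for the genes that passed. For BIRC5 the other 3 probe sets gave 0.31, 0.28 and 1.48, beside 0.31 for the chosen one. For MAD2L1 the other 2 gave 0.14 and 0.42, beside -0.04, and for KIF23 the other gave -0.07, beside -0.71. AURKB (1.41 beside 1.37) and HMMR (-0.43 beside -0.51) had probe sets close to each other.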

How the data were processed

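Total RNA from the 12 samples was amplified, labelled with biotin and hybridised to 1 array each, per the labels. The deposited values are linear signal intensity per probe set, made by the authors with MAS5 per the submitters' processing notes, with no version given in the sources used here. On every array the mean without the lowest and highest 2% was 150.02, so no further scaling was applied. Array medians ran from 10.6 to 14.1, and precision is limited by there being 12 arrays. Of 54675 probe sets, 41097 had 1 gene symbol, and genes with a mean signal under 12.55 were not tested. Values were analysed as log2(signal + 3), a scale that understates the change of dim genes, with limma 3.58.1 (R 4.3.3, trended eBayes, Benjamini-Hochberg over 11548 genes) and Python 3.11.15. Each culture was split between the doses, per the labels, and so entered the model as a fixed block. As a check, the deviations of the 2 arrays of a culture from their group means correlated at -0.11 to 0.33 over genes. Line comparisons used 3 cultures each. No batch or scan date was used here. Models were tested on simulated data. The members and lists were chosen with earlier results of these data known. All members could be named, with values on each array for those that passed (at most 6 each way) or the 4 with the smallest p, and up to 4 genes of each companion list. Other blocks, filters, scalings, pseudocounts, probe set rules and left-out cultures were tried.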

Additional observations from a re-analysis of the deposited data

Results flagged for a closer look

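In 5 of 47 sets of 4 NIKsh changes examined, 1 culture stood apart from the other 3 by more than Dixon's critical ratio for 4 values. Independent values of the same normal spread would exceed that ratio in about 1 in 20 sets. The 4 changes come from different lines and hairpins, and the genes share the same arrays. The 5 of 47 therefore cannot be read as more than that rate. For NEK2 it was Maver-1 NIKsh#1 (0.40, the other 3 between -0.55 and -0.49, ratio 0.945). For SMC4, a condensin subunit, it was Maver-1 NIKsh#2 (-0.05, the others at 0.08, ratio 0.939). For AURKA it was Z-138 NIKsh#1 (0.06, the others between -0.08 and -0.07, ratio 0.933), and for UBE2C it was Maver-1 NIKsh#1 (-0.02, the others between -0.24 and -0.23, ratio 0.921). For CDKN1A it was Z-138 NIKsh#1 (0.14, the others between -0.26 and -0.20, ratio 0.854).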

How the results depend on the processing

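The number of mitotic genes that passed stayed at 0 in the 4 NIKsh cultures under every alternative run, and 14 of the 18 untreated line calls held under all alternatives that tested them. In Z-138 NIKsh cultures 1 gene, AURKB, passed without the replicate block (-0.69, adjusted p = 0.0433) and with culture as a random block (-0.67, adjusted p = 0.0322). In the line difference of the NIKsh response 0 to 1 gene passed when 1 culture was left out, and with doxycycline 7 to 12 genes differed between the lines when 1 culture was left out, and 13 (6 higher, 7 lower) with quantile normalization, against 11. Counts over all genes moved more. For the NIKsh response (5 genes) the count was 16 without the replicate block, 13 with it random, 3 with no filter, with averaged probe sets or with no variance trend, 2 with a filter at the 75th percentile, 18 with array weights and 0 to 5 with 1 culture left out. For Z-138 alone (247) it was 423, 561, 164, 126, 23, 155, 139 and 248 to 918 under the same alternatives in the order no block, random block, no filter, averaged probe sets, no trend, 75th percentile, weights and left-out cultures. For Maver-1 alone (0) it was 1 without the block, 1 with it random and 0 to 42 with a culture left out. For the line difference of the response (14) it was 39 without the block, 64 with it random, 9 with no filter, 8 with the 75th percentile filter, 2 with averaged probe sets, 0 with no trend and 9 to 423 with a culture left out. For untreated NIKsh against NTC (0) it was 0 to 107. The median change of the 42 genes was -0.051 in Z-138 NTC with averaged probe sets (0.06 otherwise) and -0.16 in Z-138 NIKsh#2 with arrays centred on their medians (-0.06 otherwise). CCNB2 in the NTC comparison (0.17) ran from -0.014 to 0.36 with 1 culture left out, and CENPF turned to 0.094 in the Maver-1 NIKsh comparison with averaged probe sets (-0.22 otherwise). Of the gene calls between the lines with doxycycline, 5 of 11 (BIRC5, KIF23, MAD2L1, NUF2 and TTK) were lost under at least 1 alternative, and of those without, 4 of 18 (CCNB2, CENPF, PLK1 and TOP2A). The causes were not tested.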

Other observations

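S phase genes outside the 42 followed the hairpin cultures unevenly. The log2 change with doxycycline was negative for 32 of 39 S phase genes in Z-138 NIKsh#1 (median -0.19) and for 36 of 39 in Maver-1 NIKsh#2 (median -0.25), but for 8 of 39 in Z-138 NIKsh#2 (median 0.14) and 20 of 39 in Maver-1 NIKsh#1 (median -0.003). In NTC it was negative for 11 of 39 in Z-138 and 29 of 39 in Maver-1. TK1, thymidine kinase, had changes of -0.87, -0.36, 0.15 and -0.58 in Z-138 (NIKsh#1, NIKsh#2) and Maver-1 (NIKsh#1, NIKsh#2), and of 0.04 and -0.04 in Z-138 and Maver-1 NTC. MCM10 was negative in all 4 NIKsh cultures, at -0.28, -0.69, -0.08 and -0.66, with a mean of -0.43 ± 0.13 (SE; limma adjusted p = 0.333). Neither gene passed.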
